A study of Homo sapiens with 14 samples.

Results

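HNRNPF, HNRNPH1, HNRNPA2B1, KHDRBS1 and SRSF6 encode RNA-binding proteins that regulate splicing, and their guides were followed through 4 pooled CRISPR screens of colorectal cancer cells under oxaliplatin. The members were taken by symbol from the guide tables, which gave 5 of 19114 genes and 20 of 77441 guides in the knockout screens, 4 guides a gene. In the activation screens the same symbols gave 5 of 18886 genes and 15 of 56762 guides, 3 guides a gene. The 5 genes were selected on earlier results of these libraries, knockout enrichment under oxaliplatin among them, so their values are a description with no test.

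The lines were RKO and SW620, both established human colorectal carcinoma lines. Knockout cells carried Cas9 and the Brunello guide library, whose guides cut the coding sequence of their target. Activation cells carried dCas9-VP64, a Cas9 that no longer cuts fused to a transcriptional activator, with the Calabrese guide library directed at promoters. The RKO libraries were cells after 20 days in 1.9 µM oxaliplatin, untreated cells at day 20 and untreated cells at day 0, and the SW620 libraries were untreated cells at day 20, cells in 0.38 µM and in 0.5 µM oxaliplatin at day 20, and untreated cells at day 0. Blasticidin selection for the Cas9 protein and puromycin selection for the guide library, given at a low multiplicity of infection, were common to all 14 libraries. Each condition had 1 library, so every value compares libraries and no difference could be set against the spread between cultures.

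Splicing regulators bind short motifs in a pre-mRNA and raise or lower the use of nearby splice sites. Heterogeneous nuclear ribonucleoproteins (hnRNPs) coat nascent transcripts, and HNRNPF and HNRNPH1 are close paralogs that bind runs of G through quasi-RNA-recognition motifs. HNRNPA2B1 belongs to the A/B group of hnRNPs, KHDRBS1 (Sam68) is a KH-domain protein of the signal-regulated STAR family, and SRSF6 is a serine- and arginine-rich (SR) protein that binds exonic enhancers. The choice between the long and short forms of BCL-x, an apoptosis regulator, is a known target of HNRNPF, HNRNPH1 and KHDRBS1 in human cells.

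Activation guides act at promoters, so the 250 bases upstream of the annotated start are shown for the 3 members with a single start in the RefSeq promoter table (assembly GRCh38.p14), written 5′ to 3′ on the gene's strand. KHDRBS1 and SRSF6, which lay farthest apart in the RKO activation screen described below, are 2 of these. Capitals mark matches, on either strand, to the NRF1 core GCATGCGC, the E-box CACGTG, the CCAAT box CCAAT or the GC box GGGCGG.
KHDRBS1, chr1:32013618-32013867, plus strand: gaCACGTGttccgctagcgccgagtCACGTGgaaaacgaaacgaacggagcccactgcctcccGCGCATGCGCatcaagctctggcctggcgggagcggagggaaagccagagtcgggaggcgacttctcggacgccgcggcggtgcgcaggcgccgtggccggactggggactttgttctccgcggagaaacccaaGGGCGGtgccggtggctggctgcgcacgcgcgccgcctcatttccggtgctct
SRSF6, chr20:43457646-43457895, plus strand: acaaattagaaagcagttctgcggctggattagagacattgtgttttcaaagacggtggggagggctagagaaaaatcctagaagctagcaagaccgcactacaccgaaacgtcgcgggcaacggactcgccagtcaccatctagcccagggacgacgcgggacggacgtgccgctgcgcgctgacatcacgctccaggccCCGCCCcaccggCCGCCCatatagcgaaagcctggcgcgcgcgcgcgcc
HNRNPA2B1, chr7:26200747-26200996, minus strand: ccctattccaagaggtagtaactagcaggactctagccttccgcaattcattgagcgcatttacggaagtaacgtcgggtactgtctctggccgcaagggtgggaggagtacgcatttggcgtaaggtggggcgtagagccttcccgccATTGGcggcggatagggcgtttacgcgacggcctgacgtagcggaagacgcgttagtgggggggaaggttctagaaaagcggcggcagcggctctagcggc
The KHDRBS1 window held the E-box, the GC box and the NRF1 core, the last on both strands in overlapping letters. The SRSF6 window held only the GC box and the HNRNPA2B1 window only the CCAAT box among these motifs. Over 35116 promoter windows of the same length, 2.63% held the NRF1 core, 6.34% the E-box, 32.0% the CCAAT box and 42.6% the GC box. A match describes letters only, and where each activation guide binds within these windows was not used here.

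Depth was 31699260 to 69526489 counts a library in the knockout screens and 3647823 to 57502347 in the activation screens. The median count per guide was 146 to 774 in knockout libraries, and in activation libraries it was 21 under oxaliplatin in RKO and 62 to 987 elsewhere. Counts were concentrated in some treated libraries, with 41.4% of the counts of treated RKO knockout in the top 1% of guides, against 3.88% in untreated RKO at day 20. Values below are median-ratio scaled counts, and a fold is the log2 ratio of scaled counts after adding 5, with a gene's value the median over its guides. A gene was called enriched when at least 3 of its knockout guides, or 2 of its activation guides, lay above the 95th percentile of the non-targeting guides in the same comparison, and depleted when as many lay below the 5th percentile. Guides of 1 gene share their target and the pair of libraries compared, so they are not replicates, and intervals and floors cover counting error only.

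In RKO, knockout of each of the 5 members was enriched under oxaliplatin relative to untreated day 20. All 20 guides had a fold above 0 and above the 95th percentile of non-targeting guides, which was 1.96 on the log2 scale. By the same rule 1.04% of 18449 genes were enriched and 2.24% depleted. Together the 20 guides held 0.349% of all counts under oxaliplatin (95% Wilson interval 0.347 to 0.351%), against 0.00715% in untreated RKO at day 20 (0.00687 to 0.00744%) and 0.0255% at day 0 (0.0249 to 0.0260%).

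**Figure D1:**
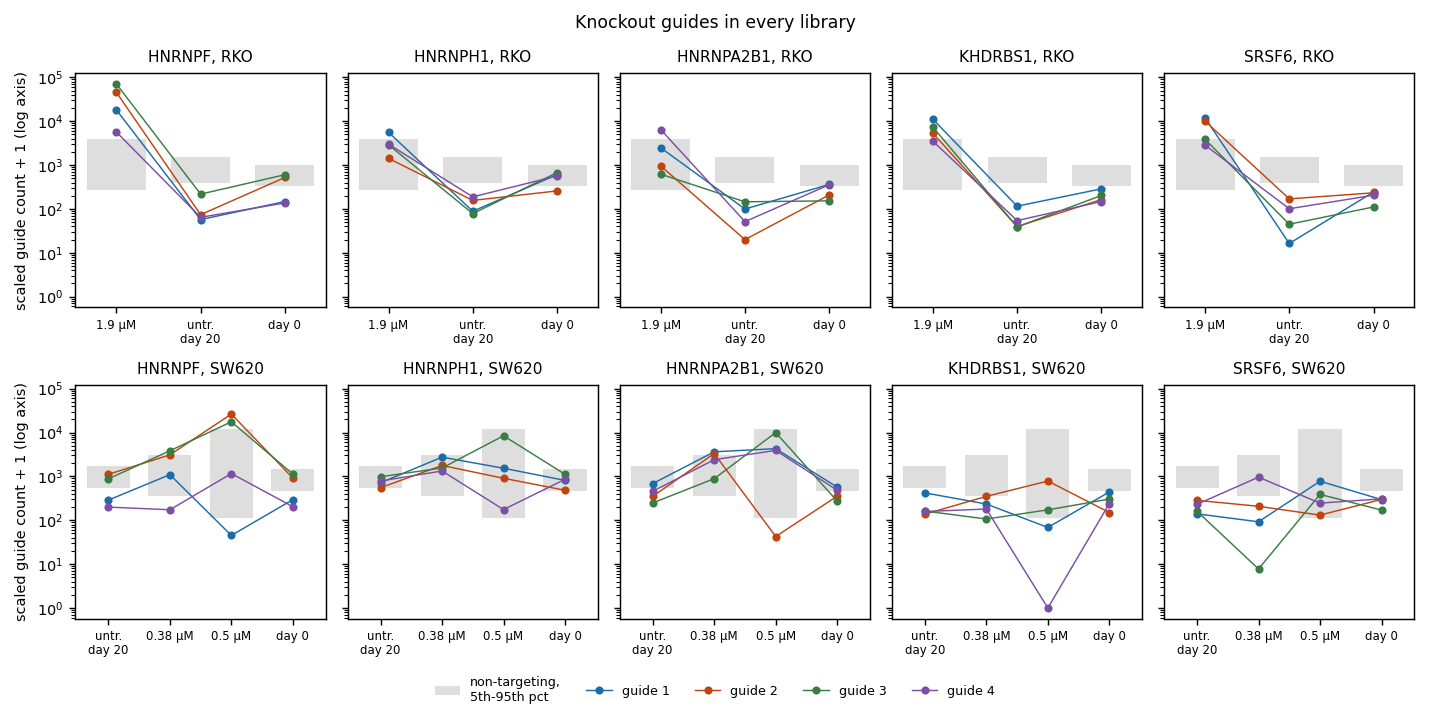
Scaled counts of each knockout guide of the 5 members, on a log axis after adding 1, in the RKO libraries (upper row) and the SW620 libraries (lower row). Each line is 1 guide, and grey bars run between the 5th and 95th percentiles of non-targeting guides in that library. In RKO every line is highest at 1.9 µM and lowest in the untreated day 20 library, while in SW620 lines cross for every member.

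HNRNPF had the strongest enrichment of the members in RKO. Its 4 guides had 18107, 45461, 70852 and 5672 scaled counts under oxaliplatin, against 56.1, 72.9, 216 and 63.4 in untreated RKO at day 20 and 146, 520, 601 and 136 at day 0. The treated values lay above all of the others, and the untreated day 20 values were each below the same guide's day 0 value. How many of all genes show such a separation of treated from untreated counts was not counted. The members were selected partly on this enrichment, so the separation given here and for each member below is description only. The median log2 fold over untreated was 8.27 (range over guides 6.38 to 9.19), rank 5 of 18449 genes. Counting error was small beside this, with the second guide 624-fold higher (exact 95% interval 513 to 767). The HNRNPF guides alone held 0.223% of the counts of the treated library.

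HNRNPH1, the paralog, was enriched less than HNRNPF. Its guides had 5568, 1417, 2899 and 2996 scaled counts under oxaliplatin, against 87.4, 155, 77.2 and 187 in untreated RKO at day 20 and 603, 256, 671 and 563 at day 0. The treated counts did not overlap with those of either untreated library. Its median fold over untreated was 4.55 on the log2 scale (3.15 to 5.91), rank 23. HNRNPF and HNRNPH1 are similar in sequence, and whether a guide to one also matches the other was not tested.

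HNRNPA2B1, which also takes part in the transport of bound RNAs, had the widest spread between guides. Its guides had 2476, 953, 618 and 6454 scaled counts under oxaliplatin, against 98.4, 18.9, 144 and 50.3 in untreated RKO at day 20 and 361, 207, 152 and 354 at day 0. The treated values again lay above all of the others. The third guide, with the smallest fold, was 4.29-fold higher than untreated (3.58 to 5.14), and the fourth was 128-fold higher (101 to 165). HNRNPA2B1 ranked 19 with a median log2 fold of 4.95 (2.06 to 6.87).

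KHDRBS1, the STAR protein, was the most even of the 5 across its guides. They had 11082, 5317, 7329 and 3503 scaled counts under oxaliplatin, against 114, 38.6, 37.9 and 53.2 in untreated RKO at day 20 and 286, 162, 201 and 146 at day 0. No treated value came near an untreated one. Over untreated, the guides had a median log2 fold of 6.73 (5.91 to 7.42), rank 9.

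SRSF6, the SR protein, had 11898, 10041, 3869 and 2847 scaled counts under oxaliplatin, against 15.3, 168, 43.7 and 99.8 in untreated RKO at day 20 and 242, 232, 110 and 204 at day 0. Its treated guides were also separate from both untreated sets. SRSF6 ranked 11 with a median log2 fold of 6.08 over untreated (4.77 to 9.20). The first guide had the largest ratio, 778-fold, with a wide interval (508 to 1257), because the untreated library held only 21 counts of it.

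**Figure D2:**
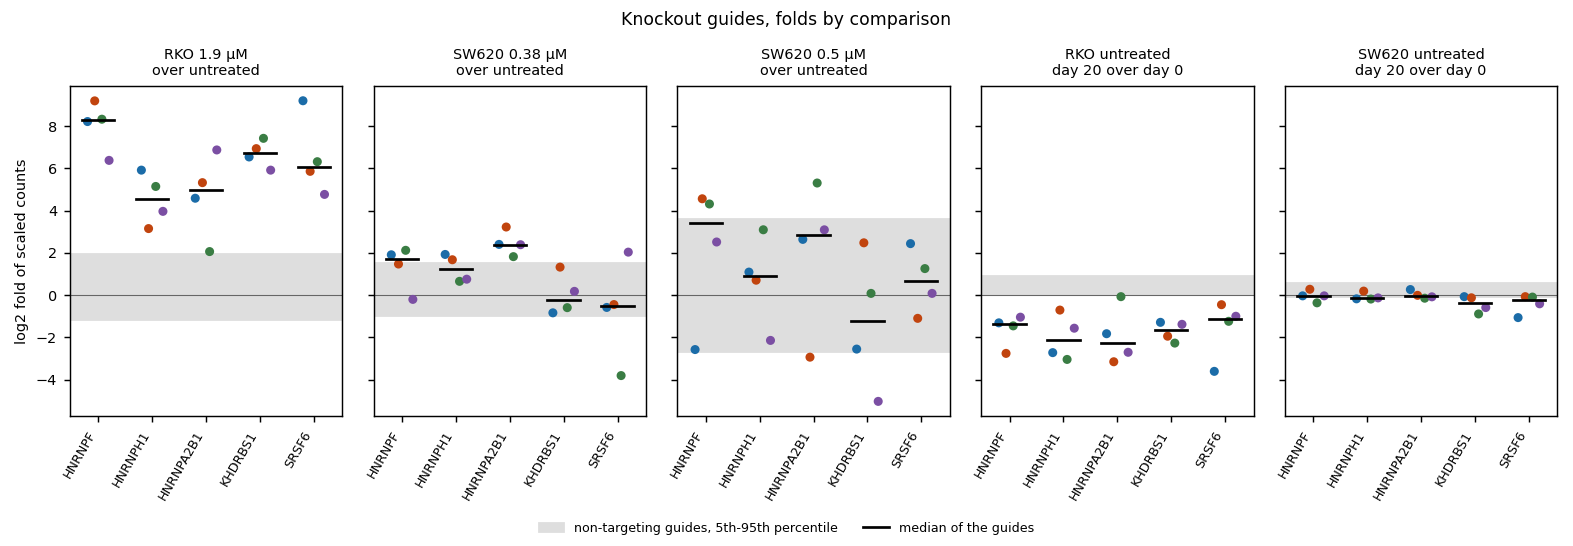
Log2 folds of the 4 knockout guides of each member (points, 1 colour per guide), with the gene median as a bar and non-targeting guides between their 5th and 95th percentiles in grey. In RKO at 1.9 µM all 20 points lie above the band, whose upper edge is 1.96, and without drug all 20 lie below it; in SW620 at 0.5 µM the band reaches from -2.68 to 3.63 and holds most points.

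Without drug the same guides were depleted in RKO between day 0 and day 20. All 20 guides were below 0 and below the 5th percentile of non-targeting guides, and each of the 5 genes was called depleted, where 28% of 19078 genes were depleted and 0.0157% enriched. The median log2 fold at day 20 over day 0 was -2.26 for HNRNPA2B1, -2.14 for HNRNPH1, -1.66 for KHDRBS1, -1.38 for HNRNPF and -1.12 for SRSF6. The order thus differed from that under oxaliplatin, where HNRNPF led. Single guides ranged from -3.60 to -0.45 for SRSF6 and from -3.15 to -0.070 for HNRNPA2B1, so the neighbours in this order overlapped in their guides. Non-targeting guides had a median of 0.51 in this comparison, and the median of all genes was 0.092.

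The untreated library is the denominator of one fold and the numerator of the other, so the treated RKO cells were also set against day 0. All 20 guides were above their day 0 level, 17 of them above the 95th percentile of non-targeting guides (2.39). HNRNPF, KHDRBS1, SRSF6 and HNRNPH1 were called enriched, where 0.304% of 19081 genes were enriched and 16.7% depleted. Median log2 folds over day 0 were 6.65 for HNRNPF (5.33 to 6.90), 5.24 for SRSF6 (3.77 to 5.59) and 5.07 for KHDRBS1 (4.53 to 5.25). HNRNPA2B1 had a median of 2.47 (1.99 to 4.17) with 2 guides past the percentile, and HNRNPH1 a median of 2.42 (2.10 to 3.20) with 3. In this comparison HNRNPF did not overlap in its guides with HNRNPH1 or HNRNPA2B1, while KHDRBS1 and SRSF6 overlapped with each other.

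SW620 differed between the members. HNRNPA2B1 was the only one of the 5 called enriched at 0.38 µM over untreated day 20, where 0.299% of 19092 genes were enriched and 3.53% depleted. Its guides had 684, 351, 247 and 456 scaled counts in untreated SW620 at day 20, 3637, 3318, 887 and 2404 at 0.38 µM, and 4288, 41.6, 9965 and 3919 at 0.5 µM. All 4 guides were higher at 0.38 µM than untreated, and at 0.5 µM 3 were higher while the second was lower. HNRNPA2B1 had a median log2 fold of 2.39 at 0.38 µM (1.82 to 3.22, rank 7) and 2.86 at 0.5 µM (-2.93 to 5.30).

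For HNRNPF in SW620 the guides had 288, 1112, 878 and 199 scaled counts untreated, 1095, 3098, 3838 and 172 at 0.38 µM, and 44.2, 26341, 17551 and 1160 at 0.5 µM. At each dose 3 guides were above and 1 below its untreated level, and the guide below was not the same at both doses. The median log2 fold was 1.69 at 0.38 µM (-0.20 to 2.12) and 3.41 at 0.5 µM (-2.57 to 4.56), with 2 guides past the non-targeting percentile at each, and the gene was not called. HNRNPH1 had a median of 1.22 at 0.38 µM (0.65 to 1.93), again with 2 guides past, and of 0.90 at 0.5 µM (-2.14 to 3.09) with none. At 0.5 µM its sign depended on the scaling, with -1.17 by library totals and -0.068 by non-targeting guides.

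KHDRBS1 and SRSF6, both high in treated RKO, were not called at either dose in SW620. KHDRBS1 guides had 420, 137, 162 and 158 scaled counts untreated, 233, 350, 106 and 179 at 0.38 µM, and 67.6, 783, 172 and 0 at 0.5 µM. With a floor of 3 counts for the treated library, the guide at 0 was at least 20.2-fold lower there than in untreated cells. The guides straddled 0 at both doses, with medians of -0.20 at 0.38 µM (-0.83 to 1.33) and -1.23 at 0.5 µM. SRSF6 guides had 139, 284, 159 and 230 scaled counts untreated, 91.3, 207, 6.76 and 960 at 0.38 µM, and 775, 130, 387 and 244 at 0.5 µM. The third SRSF6 guide at 0.38 µM rested on 8 counts and the fourth was 4.17-fold higher (3.66 to 4.76), so its guides pointed opposite ways. The SRSF6 medians were -0.51 at 0.38 µM (-3.80 to 2.04) and 0.67 at 0.5 µM (-1.10 to 2.44), the second turning to -1.36 with scaling by library totals and -0.28 by non-targeting guides.

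At 0.5 µM none of the 5 members was called in SW620, where 0.136% of 19091 genes were enriched and 2.23% depleted. Non-targeting guides spread widely in that comparison, from -2.68 to 3.63 between the 5th and 95th percentiles. The SD of their log2 folds was 0.804 at 0.38 µM and 1.91 at 0.5 µM. Of the counts, 3.20% in untreated SW620, 9.55% at 0.38 µM and 31.5% at 0.5 µM lay in the top 1% of guides. Both doses share the untreated library. In the direct comparison of 0.5 with 0.38 µM no member was called, where 0.221% of 19011 genes were enriched and 1.18% depleted. The medians there were 2.45 for HNRNPF, 1.18 for SRSF6, 0.47 for HNRNPA2B1, -0.52 for KHDRBS1 and -0.90 for HNRNPH1, and the guides of every member lay on both sides of 0. With scaling by library totals the HNRNPA2B1 median was -1.18 and the SRSF6 median -0.42.

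Set against day 0 in place of untreated day 20, HNRNPF (median 1.76) and HNRNPA2B1 (2.49) were called enriched at 0.38 µM in SW620, where 0.11% of genes were enriched and 7.92% depleted. At 0.5 µM over day 0 none was called, where 0.0681% of genes were enriched and 5.63% depleted. The 20 guides together held 0.0233% of counts in untreated SW620 at day 20, 0.0543% at 0.38 µM and 0.0472% at 0.5 µM, and 0.0258% at day 0. From untreated day 20 to 0.38 and 0.5 µM, HNRNPF went from 0.00646% to 0.0159% and 0.0277%. HNRNPA2B1 went from 0.00454% to 0.0199% and 0.0112%, and HNRNPH1 from 0.00793% to 0.0143% and 0.00678%. KHDRBS1 fell from 0.00229% to 0.00168% and 0.000628%, and SRSF6 went from 0.00212% to 0.00245% and 0.000944%. The joint share at each dose was thus under the 0.349% in treated RKO, at doses that differ.

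Without drug the member medians in SW620 were nearest to 0 for HNRNPF and HNRNPA2B1 and lowest for KHDRBS1 and SRSF6. Single guides reached -1.06 for SRSF6 and -0.89 for KHDRBS1, and non-targeting guides had a median of 0.25. HNRNPH1 (median log2 fold -0.15), KHDRBS1 (-0.35) and SRSF6 (-0.25) were called depleted at day 20 over day 0, where 20.3% of 19100 genes were depleted and 0.0471% enriched. HNRNPF (-0.032) and HNRNPA2B1 (-0.043) were not called. Of the 20 guides 3 were above 0 and 12 below the 5th percentile of non-targeting guides, which stood at -0.073. These medians were all nearer to 0 than those of the same genes in RKO. All genes were also closer together in SW620, with a 5th percentile of gene medians of -0.564 against -2.74 in RKO. As percentiles among all genes, in RKO and then SW620, KHDRBS1 lay at 8.51 and 9.68 and SRSF6 at 10.9 and 14.3. HNRNPH1 lay at 6.85 and 21.3, HNRNPA2B1 at 6.48 and 35.4, and HNRNPF at 9.66 and 37.2.

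The lines were compared guide by guide, by subtracting the SW620 fold from the RKO fold of the same guide. The untreated differences were called depleted for each of the 5, with medians between -2.36 for HNRNPA2B1 and -0.87 for SRSF6, where 12.9% of 19077 genes were called so and 0.278% the other way. For oxaliplatin the doses differ between the lines, 1.9 µM in RKO against 0.38 µM in SW620. HNRNPF, HNRNPH1, KHDRBS1 and SRSF6 were called higher in RKO in that comparison, where 1.46% of 18440 genes were called higher and 0.889% lower. The median differences were 8.04 for SRSF6 (2.73 to 10.12), 6.55 for KHDRBS1 (5.60 to 8.01), 6.44 for HNRNPF (6.20 to 7.72) and 3.60 for HNRNPH1 (1.47 to 4.49). HNRNPA2B1 was not called, with a median difference of 2.14 (0.24 to 4.48) and 1 guide past the percentile. Against 0.5 µM in SW620 the calls were HNRNPF (4.32), KHDRBS1 (8.21) and SRSF6 (5.91), where 1.36% of 18442 genes were called higher and 0.168% lower. These oxaliplatin folds are over untreated day 20, where the median of each member had fallen further in RKO than in SW620. Over day 0 the medians in treated RKO and SW620 at 0.38 µM were 2.47 and 2.49 for HNRNPA2B1 and 2.42 and 1.19 for HNRNPH1. They were 6.65 and 1.76 for HNRNPF, 5.07 and -0.65 for KHDRBS1 and 5.24 and -1.08 for SRSF6.

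**Figure D3:**
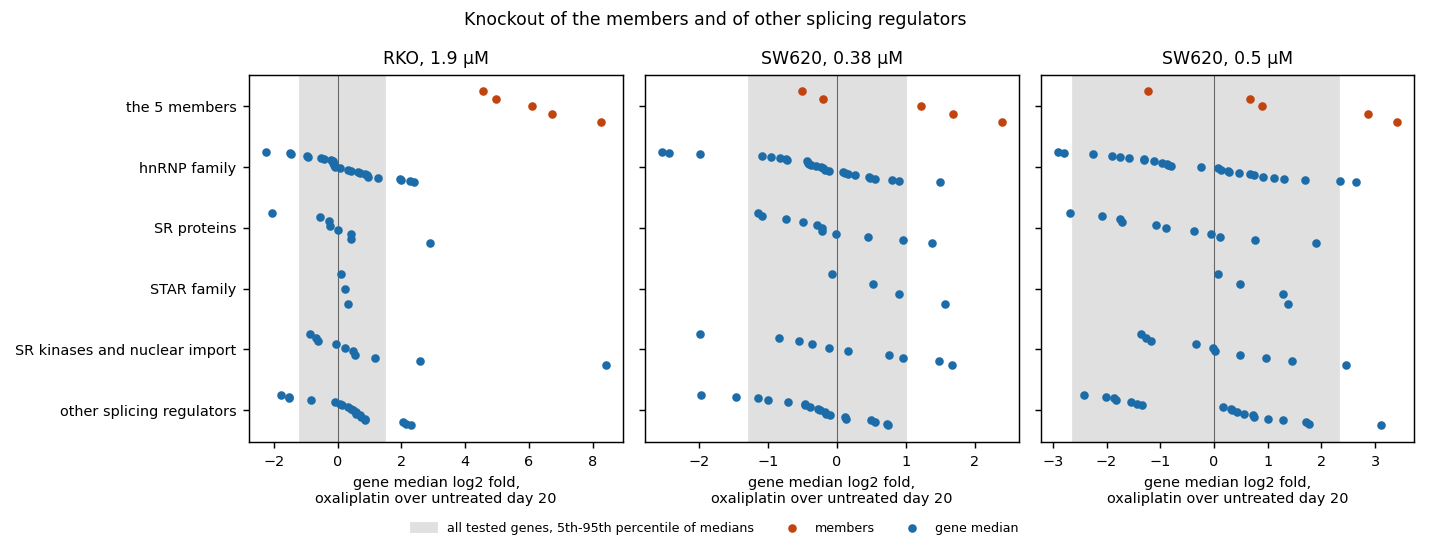
Gene median log2 folds under oxaliplatin over untreated day 20 for the 5 members (red) and for 5 lists of other splicing regulators (blue), 1 point per gene, in RKO at 1.9 µM and SW620 at 0.38 and 0.5 µM. Grey spans the 5th to 95th percentile of all gene medians, -1.19 to 1.49 in RKO; the vertical offset within a row only separates points, and in RKO DYRK1A at 8.42 is the point of the lists beyond the lowest member (4.55).

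Other splicing regulators were described with 5 lists of 73 genes in all, which leave out the members. The lists were drawn up with earlier results of these data known, so their shares beside those of all genes are description only. Of 67 with enough guides in treated RKO over untreated, 4 (5.97%) were called enriched and 5 (7.46%) depleted, beside 1.04% and 2.24% of all genes. Their median log2 fold was 0.24, beside 0.030 over all genes. The hnRNP family gave 1 enriched and 1 depleted of 27 tested, and the SR proteins gave 0 enriched and 1 depleted of 8. The STAR family gave none of 3, the SR protein kinases and nuclear import factors gave 2 enriched of 10, and the remaining regulators gave 1 enriched and 3 depleted of 19. In untreated RKO over day 0, 11 SR proteins and 4 STAR genes were tested. The count filter averages the 2 libraries compared, so guides low in untreated cells enter here only if high under oxaliplatin. SRSF2 and SF1, both depleted in untreated RKO, were not tested here.

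The strongest of the enriched regulators in RKO was DYRK1A, a kinase of nuclear speckles that phosphorylates splicing factors, with a median log2 fold of 8.42 (7.16 to 8.93), rank 4. TNPO1, the transportin that imports several hnRNPs into the nucleus, had a median of 2.58 (1.11 to 3.41). HNRNPAB, an hnRNP related to HNRNPD, was depleted with -2.24 (-2.40 to -1.24), and SRSF9, an SR protein, was called depleted with a median of -2.04 although 1 of its guides was at 2.54. Over day 0 the lists gave 2 enriched and 27 depleted of 71 (2.82% and 38.0%), beside 0.304% and 16.7% of all genes. The enriched ones were DYRK1A at 7.14 and HNRNPLL at 2.53, and PCBP2 at -2.59 and SRSF10 at -2.58 lay lowest among the depleted.

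In SW620 at 0.38 µM the lists gave 2 enriched and 4 depleted of 71 (2.82% and 5.63%), beside 0.299% and 3.53% of all genes. CLK4, a kinase of SR proteins (median 1.67, guides -0.38 to 2.22), and QKI, a STAR protein (1.57, -0.30 to 1.79), were enriched. SYNCRIP (-2.54, guides -3.65 to -0.94) and RALY (-2.45, -3.06 to 0.032), both of the hnRNP family, were depleted. At 0.5 µM none of 71 was called in either direction, beside 0.136% of all genes enriched and 2.23% depleted. Without drug 40 of 71 (56.3%) were depleted in RKO and 26 of 71 (36.6%) in SW620, beside the shares of all genes given above, 28% and 20.3%. The SR proteins had the highest share, 10 of 11 in RKO and 6 of 11 in SW620. SF1, the branch-point binding protein (-3.90, guides -5.69 to -0.012), and SRSF2 (-3.62, -4.18 to 0.048) were farthest below in RKO. In SW620 these were SRSF2 (-1.53, -3.15 to 0.31) and SRSF1 (-1.52, -2.72 to -0.29). DYRK1A, like the members, was depleted in untreated RKO, with a median of -1.08 (-1.57 to -0.84).

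**Figure D4:**
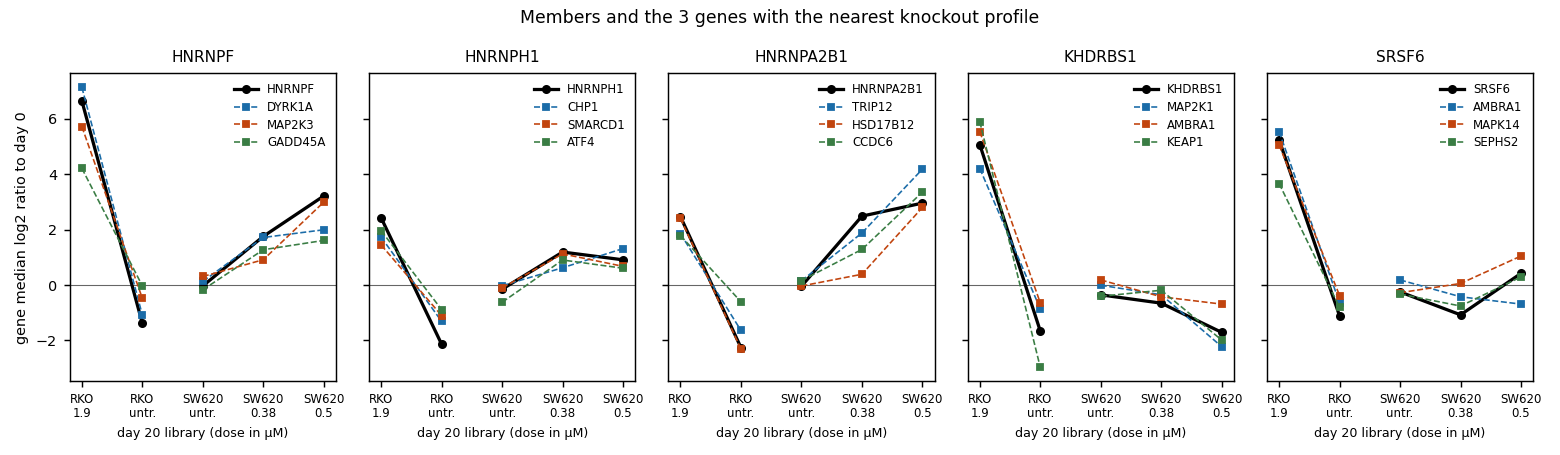
Gene median log2 ratio to day 0 of each member (black circles) and of the 3 genes nearest to it (coloured squares), over the 5 knockout day 20 libraries. Lines join libraries of the same line only; HNRNPF and HNRNPA2B1 are above 2.9 at 0.5 µM in SW620, while KHDRBS1 is at -1.71.

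The profile of each member over the 5 knockout day 20 libraries was compared with 19092 other genes by the root mean square difference of gene medians, in log2 units. HNRNPF was nearest to DYRK1A (0.61), followed by MAP2K3, a kinase of the p38 pathway (0.71), and GADD45A, a stress-induced gene (1.46). HNRNPH1 was nearest to CHP1 (0.58), SMARCD1 (0.65) and ATF4, the transcription factor of the integrated stress response (0.66). HNRNPA2B1 had TRIP12, a ubiquitin ligase (0.73), HSD17B12 (0.94) and CCDC6 (0.98) as its nearest genes.

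KHDRBS1 was nearest to MAP2K1, the ERK pathway kinase (0.61), AMBRA1, an autophagy and ubiquitin ligase factor (0.73), and KEAP1, the inhibitor of NRF2 (0.74). SRSF6 was nearest to AMBRA1 (0.66), MAPK14, the p38 alpha kinase (0.67), and SEPHS2 (0.74). KHDRBS1 and SRSF6 lay near each other, at 1.01, each among the 7 genes nearest to the other. The paralogs HNRNPF and HNRNPH1 were at 2.20, and at this distance HNRNPH1 ranked 34 of 19092 among the genes nearest to HNRNPF, while HNRNPF ranked 15643 from HNRNPH1, whose profile has more genes close to it. HNRNPH1 was eighth nearest to HNRNPA2B1 (1.09). The distance takes the 5 libraries unscaled, so those with large ratios can dominate it, and the spread of the 0.5 µM library enters in full. Treated RKO is 1 of the 5, with HNRNPF at 6.65 and HNRNPH1 at 2.42 over day 0. The members were selected partly on knockout enrichment under oxaliplatin. Nearness between members, or to other genes high in treated RKO, thus follows in part from that choice and is description only.

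**Figure D5:**
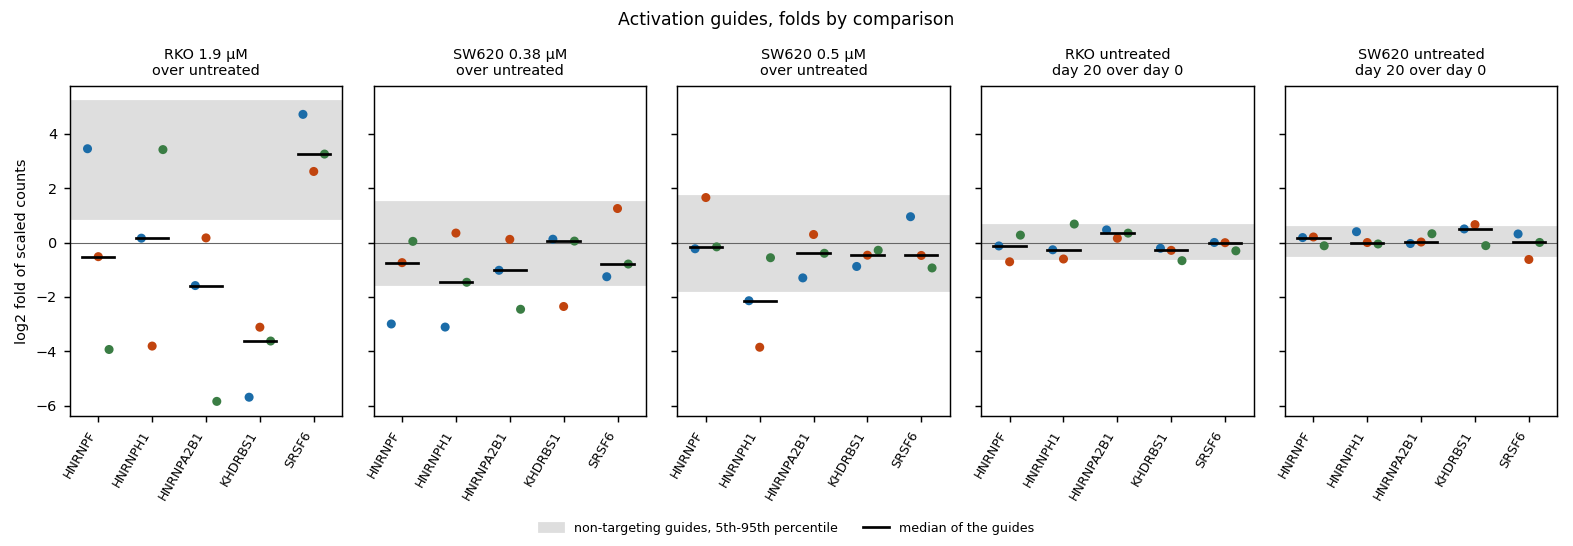
Log2 folds of the 3 activation guides of each member (points), with the gene median as a bar and non-targeting guides between their 5th and 95th percentiles in grey. In RKO at 1.9 µM the grey band lies above 0, from 0.88 to 5.21, the 3 SRSF6 guides are inside it and the 3 KHDRBS1 guides are below -3.1.

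In the RKO activation screen the members differed in the spread of their guides, and the sign of the SRSF6 and HNRNPH1 medians depended on the scaling. SRSF6 guides had 6525, 1810 and 3184 scaled counts under oxaliplatin, against 245, 292 and 330 in untreated RKO at day 20, a median log2 fold of 3.25 (2.61 to 4.71). On this scale all 3 lay above their untreated level and none above the 95th percentile of non-targeting guides (5.21), so SRSF6 was not called. The SRSF6 median was 0.99 with scaling by non-targeting guides and -0.33 by library totals, so whether it lies above 0 depends on the scaling. KHDRBS1 guides had 0, 7.15 and 14.3 scaled counts under oxaliplatin, from 0, 1 and 2 reads, against 252, 99.9 and 232 in untreated RKO. With a floor of 3 counts in the treated library the guide at 0 was 11.7-fold lower. Its exact 95% interval reached up to a ratio of 0.105 to untreated. The fitted median of -3.62 depends on the value added before the log.

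The other members had guides far apart in treated RKO activation. HNRNPF guides had 2948, 200 and 28.6 scaled counts under oxaliplatin, against 266, 289 and 507 untreated, a median of -0.52. HNRNPH1 guides had 229, 0 and 5430, against 204, 64.8 and 505 untreated, a median of 0.16 that became -3.30 with scaling by totals and -2.04 by non-targeting guides. HNRNPA2B1 guides had 71.5, 358 and 0, against 224, 317 and 280 untreated, a median of -1.58. These 3 genes and KHDRBS1 met the rule for depleted, but 71.8% of 18763 genes did and 0.65% were enriched, so the members' share is near the background. In this library 14.3% of guides had 0 counts and 52.8% of counts lay in the top 1% of guides, and the part of these in the members' values was not tested.

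In SW620 activation none of the 5 was called at 0.38 µM, where 2.24% of 18766 genes were enriched and 3.3% depleted. The medians ran from -1.46 for HNRNPH1 to 0.053 for KHDRBS1. At 0.5 µM HNRNPH1 was called depleted, where 4.13% of 18763 genes were depleted and 2.29% enriched. Its guides had 238, 66.9 and 215 scaled counts in untreated SW620, 23.3, 86.5 and 75.1 at 0.38 µM, and 50.3, 0 and 145 at 0.5 µM. The median log2 fold at 0.5 µM was -2.14 (-3.85 to -0.56), the guide at 0 being at least 17.3-fold lower against a floor of 3 counts in the treated library, and the untreated library of this screen was shallow, at 62 counts per guide. The other 4 members had medians from -0.47 to -0.16 at 0.5 µM.

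Without drug no member was called in either activation screen at day 20 over day 0. In RKO 0.708% of 18777 genes were enriched and 3.5% depleted, and the members had medians from -0.29 (KHDRBS1) to 0.35 (HNRNPA2B1). In SW620 0.565% were enriched and 3.71% depleted, with medians from 0.00046 (HNRNPH1) to 0.50 (KHDRBS1). The lists of other splicing regulators gave 1 enriched and 48 depleted of 72 in treated RKO activation (1.39% and 66.7%), beside 0.65% and 71.8% of all genes, with RALY at 6.35 (-2.61 to 8.79 over guides) as the enriched one. In SW620 activation they gave 1 enriched and 2 depleted of 72 at each dose (1.39% and 2.78%), beside 2.24% and 3.3% of all genes at 0.38 µM and 2.29% and 4.13% at 0.5 µM.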

How the data were processed

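Guide cassettes amplified from genomic DNA were sequenced in 14 libraries, 1 per condition. The authors deposited raw counts per guide for each of 4 screens, and tables of a normalized signal in which each column is the count column times 1 constant; only the counts were used for results. The submitters' processing notes name MAGeCK 0.5.7 and cutadapt 4.0, with settings not given in the sources used here. Columns were matched to samples by name, with 0 left over.

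Median-ratio size factors over all guides scaled the counts (Python 3.11.15, numpy 2.4.6, pandas 2.3.3). A guide entered a comparison if its scaled counts there averaged at least 20, and folds used a pseudocount of 5. In treated RKO knockout over untreated, the first SRSF6 guide (15.3 untreated) and the second HNRNPA2B1 guide (18.9 untreated) passed through their treated counts. All comparisons were computed over the whole tables, with the call rule given in the report. The knockout rule was tried on counts simulated from untreated RKO at day 20 with planted folds. That simulation lacked the concentration of counts seen in treated libraries, so it does not show how the rule performs there. The activation rule was not simulated. With 1 library per condition no count model has residual degrees of freedom, so no p-value is given. A guide at 0 is also given a fold with a floor of 3 counts, which takes its untreated count as exact. Count ratios have exact 95% intervals and shares have Wilson intervals. These cover counting error only, since reads amplified by PCR and lacking molecular identifiers do not count independent molecules.

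The members and the lists of regulators were chosen with earlier results of these data known. Named regulators are up to 2 called genes per direction and comparison with the median farthest from 0, and 3 nearest genes are named per member; the DYRK1A value in untreated RKO was added after it was seen. Alternatives were the scaling, the pseudocount, the filter, the call rule, the mean of guides and leaving out each guide. Promoters came from the RefSeq table, where all 5 members matched.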

Additional observations from a re-analysis of the deposited data

How the results depend on the processing

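The calls of members and of listed regulators, 22 counts in all, kept to within 1.5 times their value under scaling by library totals or by non-targeting guides, a pseudocount of 1, no count filter and a day 0 filter; both scalings shift the guides and the non-targeting percentiles together. Each count adds enriched and depleted calls, so a change of gene or direction can leave it unmoved. Calling a gene by a median at least 1 log2 unit from 0 moved 13 of the 22 counts. The count in treated RKO activation was not moved, yet SRSF6 (3.25) became enriched and HNRNPF (-0.52) and HNRNPH1 (0.16) were no longer called. HNRNPA2B1 (-1.58) and KHDRBS1 (-3.62) stayed depleted there, where all gene medians ran from -4.58 to 3.37 between the 5th and 95th percentiles. Under that rule, 3 members were called in SW620 knockout at 0.38 µM over untreated, 3 enriched and 0 depleted, beside 4.98% of all genes enriched and 8.56% depleted. At 0.5 µM it called 3, 2 enriched and 1 depleted, beside 25.1% and 30.4%. Over day 0 it called 4 at 0.38 µM, 3 enriched and 1 depleted, beside 5.53% and 10.5%, and 3 at 0.5 µM, 2 enriched and 1 depleted, beside 25.6% and 31.1%. At 0.5 over 0.38 µM it called 2, both enriched, beside 26.6% enriched and 27.6% depleted, and in untreated SW620 0 members, beside 0% and 1.20%. It called 5 in RKO minus SW620 at 0.5 µM, all in the positive direction, beside 31.5% positive and 24.4% negative, and 2 in SW620 activation at 0.38 µM, both depleted, beside 8.78% enriched and 10.8% depleted. Of the listed regulators it called 19 in treated RKO, 12 enriched and 7 depleted of 67, beside 11.4% and 7.90% of all genes. In SW620 it called 15 at 0.38 µM, 5 enriched and 10 depleted of 71, and 39 at 0.5 µM, 15 enriched and 24 depleted of 71, beside the shares of all genes given for these doses over untreated. It called 26 of 71 in untreated RKO and 3 of 71 in untreated SW620, all depleted, beside 11.6% and 1.20% of all genes depleted.

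With day 0 as the reference, an alternative chosen after seeing the data, 1 member was called in SW620 activation at 0.38 µM: HNRNPH1, depleted, beside 4.09% of all genes depleted and 1.87% enriched. In treated RKO activation the HNRNPH1 median turned to -0.11 with day 0 as the reference, -3.30 by totals, -2.04 by non-targeting guides, -0.076 as the mean of guides and -1.82 with 1 guide left out, and the HNRNPF median turned to 1.46 with 1 guide left out; the cause was not tested beyond these settings. Scaling by totals shifted the median of all genes by -1.30 in treated RKO knockout, -2.02 in SW620 knockout at 0.5 µM and -3.34 in treated RKO activation. No paired analysis was possible because each condition has 1 library and the labels give no replicate numbers. With no replicate libraries, depth limits only the counting error, and guides with few counts in treated RKO activation have the widest intervals.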
